A study of Homo sapiens and Mus musculus with 5 samples.

Results

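The RNA made by a reporter library of human DNA fragments in Neuro-2a cells was set against the plasmid DNA that had been transfected. Neuro-2a is a mouse neuroblastoma line, so human sequence was read here by mouse transcription factors. The assay was STARR-seq, in which a fragment sits inside the transcribed part of a plasmid and its own transcripts report how strongly it drives transcription. The fragments carry SNPs linked to schizophrenia, each cloned as allele 1 and allele 2, and the study asked for SNPs with biased activity between their alleles. Members were chosen by their counts: an allele of a fragment entered if its mean over the 6 libraries was 10 or more, and 1471 alleles did, of 1625 that reached this mean in at least 1 of the study's cell lines. These 1471 were all the alleles with any count in the Neuro-2a table, and the lowest mean input count among them was 13.7, so the minimum removed none.

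The Neuro-2a group consisted of 3 RNA libraries, numbered 1, 2 and 3 and named biological replicates in the labels, from cells transfected with the plasmid pool. The group they were set against consisted of 3 input libraries amplified by PCR from that pool before transfection. No drug, genotype or time differs between them, and no day of transfection is named. The activity is that of a plasmid, outside the chromosome, and whether the cells carry the markers of the line could not be checked because the tables hold reporter fragments alone. The members came from 937 fragments of 345 SNPs, of which 325 are named by chromosome and position and 20 by rs number. Both alleles had counts for 534 fragments and 1 allele for the other 403, whose second allele is listed at 0 in all 6 libraries. Each SNP was placed after 50, 100 or 150 bases of its fragment and followed by 150, 100 or 50 (the 50-base, 100-base and 150-base placements), and 261 SNPs were present in all 3 placements. The bases of the alleles and the sequences of the fragments were not used here.

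An enhancer is a stretch of DNA that transcription factors bind to raise the transcription of a gene, and many variants linked to psychiatric disease lie outside coding sequence, where a change of 1 base may alter such binding. In a reporter assay an active fragment gives more RNA than its share of the plasmid pool predicts, and a silent or repressive one gives less. Activity below is log2 of RNA over input. Its 0 is set by the typical allele, because library scaling puts the middle of the alleles there. A value of 1 is a 2-fold excess over the typical allele, and a value of 2 a 4-fold excess. Genes are those of RefSeq on GRCh38.p14. No label or header used here names the build of the SNP positions, and every gene name rests on the assumption that it is this one. Of the 325 positions, 219 lay inside a protein-coding gene; the gene table holds no exons, so exon, intron and UTR are not distinguished.

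The RNA libraries held 5875437, 7065140 and 6279476 counts in replicates 1, 2 and 3, and the input libraries held 7619645, 6380682 and 8174719. An allele had a median of 2559, 2909 and 2612 counts in the RNA libraries and of 3929, 3309 and 4237 in the input. Counting error is thus small for most members; PCR reads are not independent molecules, so it is a lower limit of the technical error. Counts of 0 were found for 70, 80 and 100 alleles in RNA replicates 1, 2 and 3, and never for the same allele in more than 1 of them. In input libraries 1, 2 and 3 they were found for 5, 2 and 6 alleles. An allele at 0 in replicate 1 had a median of 1952 counts in the other RNA libraries, and for replicates 2 and 3 these medians were 872 and 912.5. Where the other allele of the fragment was also a member, it was at 0 in the same library for 0 of 55, 2 of 60 and 2 of 71 alleles. The deposited table had been filtered by a rule that is not stated. Since no allele with counts was at 0 in more than 1 RNA library, the counts of 0 given here are those the filter left, and how often an allele was lost from several libraries cannot be read from them.

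The RNA libraries did not behave alike, with replicate 1 on one side and replicates 2 and 3 on the other. Activity lay in a narrower range in replicate 1: its interquartile range over alleles was -0.53 to 0.50, against -0.86 to 0.98 in replicate 2 and -0.79 to 1.02 in replicate 3, with alleles at 0 left out. The SD over alleles was 1.11 in replicate 1, 1.72 in replicate 2 and 1.70 in replicate 3. More than 2-fold above the typical allele were 135 of 1401 alleles in replicate 1 (9.64%), 341 of 1391 in replicate 2 (24.5%) and 347 of 1371 in replicate 3 (25.3%). More than 2-fold below it were 181 (12.9%), 302 (21.7%) and 272 (19.8%). More than 4-fold above it were 20 (1.43%), 136 (9.78%) and 149 (10.9%), and more than 4-fold below it 54 (3.85%), 101 (7.26%) and 91 (6.64%).

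Replicates 2 and 3 also resembled each other more than either resembled replicate 1. With a different input library for each, so that no control was shared, activity correlated at r = 0.661 between replicates 2 and 3 (1284 alleles). It correlated at 0.377 between replicates 1 and 2 (1317 alleles) and at 0.351 between replicates 1 and 3 (1294 alleles). These are descriptions across alleles, many of which overlap in sequence, and the input libraries come from 1 plasmid pool. For the allelic effect, defined as the activity of allele 2 minus that of allele 1, the same correlations were 0.624 between replicates 2 and 3, and 0.147 and 0.112 between replicate 1 and replicates 2 and 3. The input libraries correlated with each other at 0.991 to 0.995.

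The alleles of a fragment differ by the SNP alone, and their activities were more alike in replicate 1 than in the other replicates. Across fragments the activity of allele 1 correlated with that of allele 2 at r = 0.447 in replicate 1 (478 fragments), 0.208 in replicate 2 (473) and 0.104 in replicate 3 (461), with different input libraries for the 2 alleles. The placements of an allele overlap in sequence and correlated weakly. In replicates 1, 2 and 3 the correlation was 0.252, 0.0432 and 0.130 between the 50-base and 100-base placements, and 0.247, 0.175 and 0.0484 between the 100-base and 150-base ones. Between the 50-base and 150-base placements, which overlap least, it was 0.135, 0.117 and 0.0926, with little difference between replicates. RNA abundance followed input abundance more closely in replicate 1, at r = 0.771, than in replicates 2 and 3, at 0.431 and 0.448. What sets the replicates apart was not tested.

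Alleles that were rare in the plasmid pool showed the divide most plainly. There were 62 alleles with a mean input count under 500. In replicate 1, 24 of them had 0 counts (38.7%) and 5 had more than 1000. In replicate 2, 7 had 0 counts and 30 had more than 1000, and in replicate 3 the numbers were 10 and 31. Among the 1409 more abundant alleles the share at 0 was 3.26%, 5.18% and 6.39% in the 3 replicates.

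The divide by input abundance continued above that limit. Alleles were put in 4 groups of 367 or 368 by their count in input library 1, and activity was taken against input libraries 2 and 3. The median activity of the rarest group was 0.00 in replicate 1, 0.80 in replicate 2 and 0.91 in replicate 3. That of the most abundant group was 0.01, -0.24 and -0.29 in the same order. Alleles at 0 in a replicate were left out of its medians. In replicates 1, 2 and 3 these were 45, 42 and 58 of the rarest group and 7, 10 and 6 of the most abundant. Among alleles with counts, activity in replicates 2 and 3 was thus higher for rare ones. The medians of replicate 1 stayed between -0.03 and 0.01 over the 4 groups.

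Over all 3 RNA libraries, 85 of 1471 alleles differed from the input (5.78%), 60 above it (4.08%) and 25 below it (1.70%), by edgeR's quasi-likelihood test with a Benjamini-Hochberg adjusted p under 0.05. They belonged to 67 SNPs. All 85 had the same sign in the 3 libraries and none had a count of 0 in the RNA. The test favours alleles whose libraries agree, so this is not separate support for the calls. At an unadjusted p under 0.05 there were 378 alleles (25.7%). The median activity was 1.59 among the alleles above and -2.18 among those below. Single libraries moved the count: leaving out RNA replicate 1 gave 607 calls and leaving out RNA replicate 3 gave 151. Leaving out any 1 input library gave 0 by edgeR, where 199 to 201 alleles still had an unadjusted p under 0.05. With library totals in place of the trimmed mean, 34 were above and 29 below, or 54.0% above against 70.6%; that scaling moves the median of all alleles to -0.21.

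Without a test, 53 alleles were more than 2-fold above the typical allele in each RNA library (3.60%) and 65 more than 2-fold below (4.42%). Activity had the same sign in the 3 libraries for 716 alleles (48.7%), 328 above (22.3%) and 388 below (26.4%). The 250 alleles with no counts in an RNA library were kept in all of these numbers. The pseudocount places such a library below the typical allele. These alleles could thus be counted as below in each library but not as above. The larger numbers below are therefore not a measure of repression.

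Among the alleles above the input, the leader was allele 1 of the SNP at chr3:31997390, inside OSBPL10, which encodes an oxysterol-binding protein, and ZNF860, a zinc finger gene. With 50 bases in front it had 3813, 7726 and 5944 counts in RNA replicates 1, 2 and 3, against 107, 73 and 73 in input libraries 1, 2 and 3. All RNA libraries stood far above all input libraries although the allele was among the rare ones of the pool. Its activity was 6.53 ± 0.43 (SE, n = 3), and replicate 1 alone gave 5.94. In the 150-base placement this allele was common in the pool and was above the input too, with 22367, 40370 and 36695 RNA counts against 8735, 7237 and 9136 in the input. Its activity was 2.43 ± 0.25. With 100 bases in front it had 1126, 5853 and 5901 RNA counts against 1220, 983 and 1344 in the input, so replicate 1 was near the input and the other replicates were well above it. That placement did not pass, at 2.31 ± 0.66 and an edgeR adjusted p of 0.105.

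PPP2R3A encodes a regulatory subunit of protein phosphatase 2A, and its SNP at chr3:136050568 gave the highest counts of RNA replicates 2 and 3. Allele 2 with 100 bases in front had 27924, 87247 and 74939 RNA counts against 10696, 9746 and 12038 in the input, an activity of 2.98 ± 0.44. It was 1.80 in replicate 1 and 3.35 and 3.33 in replicates 2 and 3. With 150 bases in front the same allele had 8587, 14324 and 16479 RNA counts against 4547, 4094 and 5073, an activity of 1.97 ± 0.29. Allele 1 of that placement also passed, at 0.91 ± 0.14, with activities of 1.08, 0.85 and 0.79 in the 3 replicates. With 50 bases in front allele 2 was not called, at -0.54 ± 0.50, and it stood at 0.33 in replicate 1 against -1.25 and -1.39 in replicates 2 and 3.

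FURIN encodes a proprotein convertase that cuts precursor proteins into their active form. Its SNP at chr15:90883330 had both alleles above the input in 2 of its placements. With 50 bases in front, allele 2 had 9950, 14144 and 21965 RNA counts against 3816, 3152 and 4251 in the input, an activity of 2.50 ± 0.35. Allele 1 of this fragment had 26133, 46679 and 37129 against 9950, 8255 and 10934, an activity of 2.35 ± 0.22. With 150 bases in front, allele 2 stood at 1.26 ± 0.22 and allele 1 at 1.87 ± 0.27. In the central placement neither passed: allele 2 stood at 0.53 ± 0.23 and allele 1 at -0.88 ± 0.48. In replicates 1, 2 and 3 the 50-base placement gave 1.85, 2.27 and 3.10 for allele 2 and 1.87, 2.61 and 2.48 for allele 1. The 150-base placement gave 1.45, 0.89 and 1.38 for allele 2 and 1.44, 1.78 and 2.28 for allele 1, so every value of the called alleles was above 0, and allele 2 of the 50-base placement varied most.

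Other alleles above the input came from fragments of varied genes. Allele 2 at chr15:40279991 in ANKRD63, an ankyrin repeat gene, stood at 2.45 ± 0.41 after 100 bases and at 1.90 ± 0.18 after 50. After 150 it did not pass, at 0.68 ± 0.37. ZNF823, a zinc finger gene, had both alleles above the input at chr19:11738921 with 50 bases in front. Allele 1 had 16490, 47738 and 44611 RNA counts against 7650, 6086 and 8600, an activity of 2.73 ± 0.43, and allele 2 stood at 1.47 ± 0.14. ANKRD27, an effector of Rab GTPases in vesicle traffic, had both alleles above at chr19:32672137 with 150 bases in front, at 1.28 ± 0.13 for allele 2 and 1.06 ± 0.14 for allele 1. EEFSEC, the elongation factor for selenocysteine, had both alleles above at chr3:128174008 (100-base placement), at 0.89 ± 0.16 for allele 2 and 1.49 ± 0.22 for allele 1.

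Of the remaining leaders, 3 were rare in the pool and 1 was moderately so. The protocadherin gamma cluster encodes adhesion proteins of neurons. Allele 1 at chr5:141474289 (150-base placement) there had 1937, 1864 and 4460 RNA counts against 74, 57 and 74 in the input, an activity of 5.81 ± 0.62. Allele 2 at chr8:143160497 (50-base placement) in LY6H, a gene of the Ly6 family, had 1153, 4910 and 4085 against 293, 253 and 347, an activity of 3.95 ± 0.63. Allele 2 at chr6:87144623 (50-base placement), nearest to the locus LOC124901355, was higher in replicate 1 than in the others, with 3388, 1920 and 2763 RNA counts against 480, 439 and 547, an activity of 2.91 ± 0.39. Allele 1 at chr16:89631217 (100-base placement) in DPEP1, which encodes a dipeptidase, had 1426, 12622 and 6111 against 582, 498 and 549. Its activity was 4.03 ± 0.80, with 1.82 in replicate 1 and 4.87 and 4.03 in the others. Over these 10 leading alleles the edgeR adjusted p lay between 0.00413 and 0.0496.

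The alleles below the input were mostly abundant in the pool. Allele 1 at chr4:102730805 (100-base placement) in MANBA, the gene of lysosomal beta-mannosidase, had 292, 557 and 502 RNA counts against 19982, 16091 and 21081 in the input. Each RNA library was thus far below each input library, and the activity was -4.96 ± 0.31. Allele 1 at chr2:198058744 in PLCL1, whose product resembles phospholipase C but lacks its enzymatic activity, had 455, 543 and 432 against 6314, 5474 and 8428 with 100 bases in front, at -3.38 ± 0.24. With 50 bases in front it had 890, 1412 and 966 against 7876, 6721 and 8357, at -2.38 ± 0.24. The third placement, rarer in the pool, did not follow: with 150 bases in front it stood at -1.21 in replicate 1 and at 2.04 and 2.19 in replicates 2 and 3, and was not called.

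Allele 1 at chr4:23421980 (50-base placement), nearest to the transcriptional coactivator gene PPARGC1A at a distance of 370041 bases, had 1140, 1535 and 974 RNA counts against 14648, 12194 and 15333, at -3.10 ± 0.19. The 3 RNA libraries differed little from each other here. ABCB1 encodes the drug efflux pump P-glycoprotein, and both alleles at chr7:87615644 there were below the input with 100 bases in front. Allele 2 had 640, 607 and 501 RNA counts against 3795, 3386 and 4254, at -2.27 ± 0.28, and allele 1 had 1468, 819 and 1692 against 9672, 7740 and 10326, at -2.33 ± 0.36. Allele 2 at chr4:64952689, nearest to the ephrin receptor gene EPHA5 at 366878 bases, was below in the 50-base placement at -1.55 ± 0.18 and in the 150-base placement at -1.04 ± 0.17. Its central placement split by replicate, with 0.24 in replicate 1 against -1.87 and -2.36, and was not called.

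The other low leaders were single placements. Allele 1 at chr10:102866129 (100-base placement), nearest to BORCS7, which encodes a subunit of a complex that positions lysosomes, stood at -2.88 ± 0.50. Allele 2 at chr3:23189265 (100-base placement), nearest to the ubiquitin-conjugating enzyme gene UBE2E2, stood at -2.76 ± 0.45, and allele 1 at chr7:2186527 (100-base placement) in MAD1L1, a spindle checkpoint gene, at -2.67 ± 0.35. Allele 1 at chr11:130848735 (150-base placement), nearest to the sorting nexin gene SNX19, and allele 1 at chr1:110782105 (150-base placement), nearest to the tetraspanin gene CD53, both stood at -2.28, with SE of 0.34 and 0.41. Over the 10 lowest alleles the edgeR adjusted p lay between 0.00413 and 0.0359.

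In the fit of all 3 replicates, the calls of several placements of an allele, or of both alleles of a fragment, went the same way. For 8 combinations of SNP and allele, 2 placements were called, 6 above the input and 2 below, and in none were all 3 placements called. For 7 fragments both alleles were called, 6 above and 1 below, and no fragment had its alleles called in opposite directions. Placements of a SNP overlap in sequence and the alleles of a fragment differ by the SNP, so these are not independent observations. In the fit of replicates 2 and 3 alone, calls of the same SNP or fragment often opposed each other. Of 145 combinations of SNP and allele with 2 or more placements called there, 61 were above the input in all of them, 26 below and 58 mixed. Of 91 fragments with both alleles called there, 46 had both above, 19 both below and 26 had them in opposite directions. Of the alleles with 50 bases in front, 28 of 470 were above the input (5.96%) and 10 below (2.13%). With 100 bases in front 15 of 503 were above (2.98%) and 11 below (2.19%), and with 150 bases 17 of 498 were above (3.41%) and 4 below (0.803%). Median activities of the placements lay between -0.04 and 0.06 in every replicate, and the difference in calls was not tested.

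SNPs inside the genes of the lists examined were few, and their medians lay on both sides of 0. Over all 1471 alleles the median activity was 0.01. Of 53 alleles in transcription factor and chromatin genes, 4 were above the input, 2 below and 47 did not pass, with a median of 0.01. The 4 above were the OSBPL10 and ZNF860 and the ZNF823 alleles given. Below were allele 1 at chr18:55532886 (50-base placement) in TCF4, a helix-loop-helix factor of neuronal development, at -1.90 ± 0.33, and allele 2 at chr12:123996254 (50-base placement) in ZNF664 at -1.14 ± 0.22. The TCF4 allele had 4323, 1981 and 2793 RNA counts against 15963, 13412 and 16932 in the input, so that all 3 RNA libraries were below all input libraries.

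Of 16 alleles in synapse and cell adhesion genes 2 were above the input and none below by edgeR, with a median of 0.19; besides the protocadherin allele this was allele 1 at chr16:66908303 (50-base placement) in the cadherin gene CDH16, at 0.85 ± 0.13. Of 35 alleles in the list of splicing, mitosis and ubiquitin genes, 3 were above and 2 below, with a median of -0.03. MAD1L1 had alleles on both sides. Allele 2 at chr7:1977810 (50-base placement) had 23583, 35226 and 29263 RNA counts against 11240, 9490 and 11932, at 1.87 ± 0.16, and allele 1 at position 1981360 (50-base placement) stood at 1.21 ± 0.19, whereas the allele at 2186527 was the low one given. The cohesin loader gene MAU2 had allele 1 at chr19:19329257 (100-base placement) above, at 0.80 ± 0.11, and the cullin gene CUL9 had allele 2 at chr6:43217995 (100-base placement) below, at -2.03 ± 0.38.

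Of 16 alleles inside the listed genes of 10q24 (CNNM2, NT5C2 and WBP1L), 1 was above the input and none below by edgeR. This was allele 1 at chr10:103146454 (100-base placement) in NT5C2, which encodes a cytosolic nucleotidase. It had 10117, 17150 and 13123 RNA counts against 4591, 4057 and 4989, at 2.00 ± 0.21. With SNPs within 10 kb of listed genes, 2 of 27 alleles were above and 1 below, the low allele nearest to BORCS7. None of 8 alleles in voltage-gated calcium channel genes (CACNA1C and CACNA2D2) and 4 in other ion channels and pumps (ATP2A2) passed by edgeR, with medians of 0.25 and 1.13. For the 4 ATP2A2 alleles the median was -0.30 in replicate 1, of the opposite sign. No SNP lay in the dopamine genes listed or in the MHC region. In a list of 16 alleles or fewer, 1 call is already above the background share of 5.78% and no call is below it. The shares of such lists thus cannot be compared with the background. The transcription factor and chromatin list of 53 alleles had a larger share than the background. So did the splicing, mitosis and ubiquitin list of 35. With 1 to 12 SNPs to a list and placements that overlap in sequence, these differences were not tested.

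When replicates 2 and 3 were taken without replicate 1, 607 of 1471 alleles differed from the input (41.3%), 369 above (25.1%) and 238 below (16.2%), by edgeR's quasi-likelihood test at an adjusted p under 0.05. At an unadjusted p under 0.05 there were 720 (48.9%). In replicate 1 the alleles called above had a median activity of 0.34 and those called below a median of -0.29, against 1.495 and -1.14 in the fit of replicates 2 and 3. The same input libraries enter both. The alleles were chosen by replicates 2 and 3, which by itself favours larger values there than in replicate 1. Calls were spread unevenly over input abundance: the rarest group of 368 held 119 alleles above and 12 below, and the most abundant held 71 above and 111 below. The count was 295, 291 and 288 without input library 1, 2 or 3. With a single RNA library left, and its spread taken from the input libraries, it was 1304 without replicate 2 and 1323 without replicate 3. With library totals, 300 were above and 314 below, or 48.9% above against 60.8%, and the median of all alleles was -0.36 against -0.09.

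Over all 1471 alleles, 25.1% were above the input and 16.2% below in the fit of replicates 2 and 3. With such shares, calls on both sides are not particular to a list, and no list was tested against them. In replicates 2 and 3 the gene lists had calls on both sides, apart from the calcium channel genes with 1 of 8 alleles above and none below by edgeR. Transcription factor and chromatin genes had 18 of 53 alleles above and 11 below, and synapse and adhesion genes 5 of 16 above and 3 below. Splicing, mitosis and ubiquitin genes had 8 of 35 above and 7 below, and the 10q24 genes 3 of 16 above and 3 below. Of the 4 ATP2A2 alleles 3 were above and 1 below. The median activity of these lists was 0.35 for calcium channel genes, 0.00 for transcription factor and chromatin genes, 0.23 for synapse genes, -0.05 for splicing, mitosis and ubiquitin genes, -0.17 for 10q24 and 1.46 for ATP2A2. In replicate 1 the same medians were 0.31, 0.09, 0.05, 0.04, -0.32 and -0.30.

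The highest alleles of replicates 2 and 3 were rare in the pool, and 6 of the 8 highest had 0 counts in replicate 1. These 8 were taken among called alleles with no count of 0 in replicates 2 and 3. An RNA count of 0 could thus stand only in replicate 1, and its place there is set by the choice. Allele 1 at chr3:52781889 (50-base placement) in ITIH1, which encodes a heavy chain of a plasma protease inhibitor, had 7419 and 7978 RNA counts in replicates 2 and 3 and 0 in replicate 1, against 49, 47 and 54 in the input. Its activity in replicates 2 and 3 was 7.68, with an edgeR adjusted p of 0.000126. Allele 1 at chr1:230136877 (50-base placement) in GALNT2, a glycosyltransferase gene, had 13539 and 7149 in replicates 2 and 3 and 0 in replicate 1, against 185, 166 and 183. The same pattern held for the SNP rs1498232 with 8641 and 8689 counts, and for fragments in SPATS2L, in ENOX1 and beside the sperm protein gene IZUMO1.

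In the last 3 of these the replicate 2 and 3 counts were 4666 and 5643, 4306 and 1923, and 9893 and 10756, while replicate 1 was at 0. Over all 3 replicates these 6 alleles had edgeR adjusted p between 0.162 and 0.255. The other 2 of the 8 highest were the OSBPL10 and ZNF860 allele and the protocadherin gamma allele, which had counts in every replicate.

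The lowest alleles of replicates 2 and 3 included the MANBA, PLCL1 and UBE2E2 alleles given. Allele 2 at chr15:43456106 (50-base placement) in TP53BP1, a DNA damage response gene, had 579 and 178 RNA counts in replicates 2 and 3 and 1302 in replicate 1, against 9453, 7334 and 9793 in the input. Its activity in replicates 2 and 3 was -4.18 with an edgeR adjusted p of 0.00737, and all 3 replicates lay below the input. Allele 2 at chr5:44743145 (50-base placement), whose nearest gene is MRPS30, a gene of the mitochondrial ribosome, had 298 and 63 in replicates 2 and 3 and 1571 in replicate 1, against 3060, 2716 and 3302. Replicate 1 gave an activity of -0.51 there, against -3.00 and -5.03. A second PLCL1 SNP, at chr2:197951938 (150-base placement), had 569 and 540 in replicates 2 and 3 and 2110 in replicate 1, against 8156, 7150 and 8856. Fragments near SPHKAP and NUF2, which encode an anchor of protein kinase A and a kinetochore protein, completed the set at -3.45 and -4.16, the NUF2 one with 0 counts in replicate 1.

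The alleles of 534 fragments could be set against each other. Over all 3 replicates, 1 fragment passed (0.187%) by edgeR's quasi-likelihood test of the allele by RNA term at an adjusted p under 0.05, and 58 had an unadjusted p under 0.05 (10.9%). By limma-voom 0 passed, with 103 at an unadjusted p under 0.05, and DESeq2 called 68. Of the 58, all had the same sign in the 3 RNA libraries and 57 had no count of 0; in 33 of those allele 2 was the more active and in 24 allele 1. The test favours effects that agree between libraries, so the shared sign is not separate support. The sign was the same in the 3 libraries for 184 fragments in all (34.5%), those with a count of 0 included. The median SE of an allelic effect was 0.82, so a 2-fold difference, which is 1 on this scale, is of about the size of that error. Leaving out RNA replicate 1 gave 163 calls, and leaving out any other library gave 1.

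The fragment that passed was that of OSBPL10 and ZNF860 with 50 bases in front. Allele 2 had 6806, 13938 and 8099 RNA counts against 8041, 6545 and 8746 in the input, while allele 1 had the 3813, 7726 and 5944 against 107, 73 and 73 given for activity. Allele 2 was thus much closer to its input than allele 1. The effect was -5.83 ± 0.32 (log2, SE, n = 3), with -5.69, -5.67 and -6.08 in replicates 1, 2 and 3 and an edgeR adjusted p of 0.00266. The call was lost when alleles with a mean input count under 500 were left out, since allele 1 is one of them, and 0 of 487 fragments then passed by edgeR, with 52 at an unadjusted p under 0.05.

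Besides the fragment that passed, 3 of those named for an unadjusted p under 0.05 had effects within 1 log2 unit of each other over the replicates. At chr6:87144623, nearest to LOC124901355, the effect was 3.43, 3.19 and 3.17 in replicates 1, 2 and 3, at 3.27 ± 0.44. Its edgeR adjusted p was 0.102, so it did not pass, and allele 2 was the rarer one in the input, with 488.7 counts on average against 3832.3 for allele 1. The SNP rs4648845 with 150 bases in front had effects of -1.71, -1.86 and -2.25, at -1.94 ± 0.27 and an edgeR adjusted p of 0.102. Here allele 2 had 1636, 1187 and 864 RNA counts against a mean of 2067.0 in the input, and allele 1 had 15066, 12131 and 11552 against 5806.0. The fragment of DRC3, which encodes a part of the dynein regulatory complex of cilia, at chr17:18009234 had effects of 1.84, 2.37 and 2.07 with 100 bases in front, at 2.10 ± 0.44. Allele 2 had 2479, 6005 and 4379 RNA counts against a mean of 3602.0 in the input, and allele 1 had 258, 433 and 390 against 1353.0, so that allele 1 was below its input.

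The other fragments of this group had larger and less even effects, and none passed after adjustment by edgeR. Allele 2 was the more active in fragments of MAD1L1 at 3.92 ± 0.85, LY6H at 3.73 ± 1.43, the protein kinase D gene PRKD3 at 3.63 ± 0.82, FRMD5 at 3.04 ± 0.70, ANKRD45 at 2.87 ± 0.51 and NT5C2 at 2.11 ± 0.69. Allele 1 was the more active in fragments of HSPE1-MOB4 at -2.96 ± 0.92, near MRPS30 at -2.72 ± 0.93, of the SAGA complex gene ATXN7 at -2.35 ± 0.70, of DPEP1 at -2.26 ± 0.62, near DMRTA1 at -2.12 ± 0.68 and of the histone acetyltransferase gene HAT1 at -1.64 ± 0.62. In 11 of these 12 the effect was smallest in replicate 1, as in HSPE1-MOB4 with -1.06 against -4.44 and -3.26 and in HAT1 with -0.63 against -2.83 and -1.50. The exception was ANKRD45, with 2.52 in replicate 1 against 3.74 and 2.37.

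Taken alone, replicate 1 gave an allelic effect past 2-fold for 123 of 479 fragments (25.7%) and past 4-fold for 25 (5.22%). In replicate 2 the numbers were 270 of 475 (56.8%) and 118 (24.8%), and in replicate 3 they were 267 of 464 (57.5%) and 129 (27.8%). The median size of an effect was 0.54 in replicate 1, 1.23 in replicate 2 and 1.20 in replicate 3. Fragments with an allele at 0 in a replicate were left out of these values for it. Those with an allele at 0 in an input library were kept, and the pseudocount can enlarge their effects in every replicate. Without replicate 1, 163 of 534 fragments passed (30.5%) by edgeR, 78 with allele 2 the more active (14.6%) and 85 with allele 1 (15.9%), and 222 had an unadjusted p under 0.05 (41.6%). All 163 had the same sign in replicates 2 and 3 and no count of 0 there, which the test favours and which is not separate support. The median size of the called effects was 1.72. The count was 17, 15 and 16 without input library 1, 2 or 3, and 487 and 485 with a single RNA library left, without replicate 2 or replicate 3.

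Of the 16 largest effects of replicates 2 and 3, 5 stood at the opposite sign in replicate 1 with counts above 0 for both alleles. The 16 were chosen by their size in replicates 2 and 3, which by itself favours smaller effects in replicate 1. The fragment of HSPA9, a mitochondrial chaperone gene, at chr5:138556481 (150-base placement) had effects of 4.59 and 4.87 in replicates 2 and 3 and -0.57 in replicate 1. Allele 2 had 16400 and 19302 RNA counts in replicates 2 and 3 and 1985 in replicate 1, against 3007, 2587 and 3397 in the input, and allele 1 had 885 and 859 in replicates 2 and 3 and 3820 in replicate 1, against 4027, 3309 and 4351. Both alleles were common in the pool here. The fragment of MSRA, a methionine sulfoxide reductase gene, at chr8:10388815 (150-base placement) had -5.42 and -5.48 in replicates 2 and 3 and 0.34 in replicate 1. Its allele 1 had 7023 and 7788 RNA counts in replicates 2 and 3 and 274 in replicate 1, against 608, 557 and 628.

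In UNC79, whose product belongs to a sodium leak channel complex, the effects were -4.23 and -5.13 against 0.84 in replicate 1, and in NDRG4 they were -2.85 and -5.64 against 1.18. Near ZSCAN2 they were 5.34 and 4.07 against -0.64. In 3 others the sign was the same and the effect smaller in replicate 1. ATP2A2, the gene of a calcium pump of the endoplasmic reticulum, had 3.52 and 5.28 against 0.51. The SNP rs11121172 gave 2.95 and 5.17 against 0.01, and FOXO3, a forkhead factor gene, gave -4.28 and -6.49 against -0.82. In 4 further fragments, in ITIH1, in VRK2, in the protocadherin gamma cluster and near RNF180, an allele had 0 counts in replicate 1. The set was taken among fragments with no count of 0 in replicates 2 and 3, so an RNA count of 0 could stand only in replicate 1. MAD1L1, LY6H, PRKD3 and the OSBPL10 and ZNF860 fragment complete the set, with effects of the same sign in replicate 1, at 2.63, 1.21, 2.31 and -5.69. No test of replicate 1 against the others was made, since it is a single library.

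The alleles were unequal in the plasmid pool, with a median 2.33-fold difference between those of a fragment, and 145 of 534 fragments were at least 4-fold apart. For the shares by replicate, the rarer allele was taken from input library 1 and the effect from input libraries 2 and 3. Fragments with an allele at 0 in a replicate were left out of its shares. Where the alleles were at least 4-fold apart, the effect favoured the rarer one in 54 of 117 fragments in replicate 1 (46.2%), 96 of 125 in replicate 2 (76.8%) and 91 of 120 in replicate 3 (75.8%). The median effect toward the rarer allele was -0.11, 1.46 and 1.40 on the log2 scale. Where they were less than 2-fold apart these shares were 49.3%, 53.0% and 57.6%. Of the 163 fragments called in replicates 2 and 3, 117 favoured the rarer allele (71.8%), against 300 of all 534 tested (56.2%). These fitted effects use all 3 input libraries, so input library 1 enters both the choice of the rarer allele and the effect. The part of input abundance in the allelic calls was not tested.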

How the data were processed

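Per the file headers, the authors deposited read counts, whole and unnormalized, with a column for each library and allele. Per the labels' protocols, cDNA of polyadenylated RNA went through PCR, and the plasmid pool was amplified by PCR before transfection for the input. Limma 3.40.6 stands in the submitters' processing notes with no role; no aligner or counter is named in what was used here. The deposited table is called filtered by its name, with no rule given. Allele columns were summed within a library for its total.

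Counts were analysed in R 4.3.3 with edgeR 4.0.16 (trimmed mean of M values, quasi-likelihood test, two-sided, Benjamini-Hochberg over the whole table, mean count of 10 or more). The fit used RNA against input for activity, and library, allele and allele by RNA for allelic effects. The SE came from the estimate and its F statistic, and 1 spread was taken for RNA and input although input libraries vary less. Per-library values used a pseudocount of 1. Alternatives used DESeq2 1.42.0 and limma 3.58.1. Fits were run on simulated counts with 1 spread for RNA and input and no replicate set apart. The real libraries differ in both, so error rates of the calls here cannot be read from that run. No 2 libraries of a kind agreed within sampling noise (chi-square per degree of freedom of 44.8 or more).

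Alleles named were the 10 highest and 10 lowest past the threshold with 1 sign in all replicates, 8 per direction for the other comparisons, SNPs with more than 1 placement or both alleles called, and list members that passed. Those named 8 per direction had 1 sign over the replicates compared and no count of 0 in them. The members and lists were chosen with earlier results of these data known. The result of 1 further list is not reported here. RNA and input libraries of the same number deviated together at r = 0.170, 0.0461 and 0.0265, and nothing in the labels pairs them.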

Additional observations from a re-analysis of the deposited data

How the results depend on the processing

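Of the values of single alleles and fragments named, none changed direction under any alternative run; for activity over all replicates 651 of their values kept the side of the threshold, 237 lost the call and 8 gained it. The count of 85 alleles over all replicates was 410 with DESeq2, 112 with limma-voom (60 above and 52 below), 157 with edgeR's likelihood ratio test, 159 without alleles that have a count of 0, 15 at an adjusted p of 0.01 and 178 at 0.1, and between 0 and 607 with 1 library left out. The count of 1 allelic effect was 68 with DESeq2, 0 with limma-voom, 2 with the likelihood ratio test, 2 without counts of 0 and 0 with a mean input of 500 counts, an alternative chosen after seeing the data; it lay between 1 and 163 with 1 library left out. For replicates 2 and 3, the count of 607 alleles was 347 at an adjusted p of 0.01 and between 288 and 1323 with 1 library left out. The count of 163 allelic effects was 333 with DESeq2, 62 at an adjusted p of 0.01 and between 15 and 487. With the replicate number as a block, edgeR called 0 in each of the 4 comparisons, with 222, 16, 357 and 75 at an unadjusted p under 0.05; the samples share only a number, and the block leaves fewer residual degrees of freedom. A minimum of 50 counts, or none, kept the same 1471 alleles. With genes within 10 kb, 3 of 27 alleles of the 10q24 list were called in place of 1 of 16. Over all replicates, leaving out RNA replicate 1 gave the highest counts of those runs, and leaving out any input library ended every activity call. The 3 libraries of each kind differed by more than the sampling noise of their read counts, and what sets that spread was not tested.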
